A study of Mus musculus with 14 samples.

Results

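Suckling mice were injected with recombinant mouse IL-22 (rmIl22) or with phosphate-buffered saline (PBS), and RNA was sequenced from the whole ileum, the segment of small intestine nearest the colon. The comparison rests on 6 of the 14 libraries of the series, 3 per group, chosen by sample title. All 6 come from wild-type C57BL/6N mice, an inbred laboratory strain. The rmIl22 mice received intraperitoneal injections of 0.1 µg of the cytokine per g of body weight in 100 µL of PBS at postnatal days 14 and 15, the PBS mice received the vehicle on those days, and both were killed at day 16, before weaning. The age field disagrees with this, with day 14 entered for PBS samples and day 24 for rmIl22 samples. The other 8 libraries are from untreated wild-type C57BL/6N mice, 4 at day 14 (P14, suckling) and 4 at day 24 (P24). Of 46855 genes in the expression table, 14456 reached 1 TPM (the usual unit of transcript abundance, scaled for gene length and library size) in at least 3 of the 6 injected libraries and were tested. The injected libraries held 39.3 to 46.4 M reads assigned to genes. The labels do not say that each library is a separate mouse, and p-values measure only the spread between these libraries.

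IL-22 is a cytokine made mainly by innate lymphoid cells and T cells. It binds a receptor built from IL-22RA1, found on epithelial cells, and the shared chain IL-10RB, and signals mainly through the transcription factor STAT3. In the intestine it is known for inducing antimicrobial lectins, serum amyloid A, fucosylation of the epithelial surface and mucins. The suckling ileum is lined by enterocytes that take up milk proteins whole and break them down in large lysosomes, a cell state that is lost at weaning. The title of the series ties IL-22 to the glycocalyx, the mucin coat of the brush border.

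Upstream stretches of 5 genes are printed: 2 with a STAT-type motif, for the cytokine's own pathway, and 3 with an interferon-response motif, for the gene list with the most falls. Sequences are from RefSeq on GRCm38.p6, read 5′ to 3′ on the gene's strand, with motif letters in capitals. Reg3b encodes an antimicrobial lectin and Socs3 the feedback inhibitor of STAT3 signalling. Ifit3, Isg15 and Rsad2 encode antiviral proteins induced by interferon. Isg15 and Rsad2 were chosen for printing after their values were seen.
Reg3b, chr6:78370731-78370789, plus strand: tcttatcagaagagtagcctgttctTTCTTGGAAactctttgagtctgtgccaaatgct
Socs3, chr11:117969487-117969545, minus strand: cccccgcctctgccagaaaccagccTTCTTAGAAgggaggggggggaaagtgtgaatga
Ifit3, chr19:34583348-34583441, plus strand: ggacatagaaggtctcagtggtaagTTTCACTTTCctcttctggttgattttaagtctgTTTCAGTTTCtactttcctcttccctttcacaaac
Isg15, chr4:156200850-156200921, minus strand: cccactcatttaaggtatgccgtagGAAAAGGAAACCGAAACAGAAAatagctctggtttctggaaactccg
Rsad2, chr12:26456538-26456597, minus strand: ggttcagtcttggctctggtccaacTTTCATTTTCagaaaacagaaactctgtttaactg

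The motifs searched on both strands in the 250 bases before each start site were TTCNNNGAA, which reads the same on either strand, and the interferon-response motif, GAAA followed by any 2 bases and GAAA again, whose matches may overlap each other, as the 3 in Isg15 do. TTCNNNGAA was found for 8.13% of the 27025 gene symbols with an upstream sequence and the interferon-response motif for 3.46%. A match is a description of letters and not a measured binding site.

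Before the comparison itself, the 6 libraries differed in at least 3 ways that the labels do not give. A further spread, in B cell genes, is given with the markers of other cell types. The first is in sex-linked genes. Xist, the RNA of the inactive X chromosome, was at 0.0703, 0.0940 and 0.0913 TPM in PBS 1, 2 and 3 and at 0.0883, 28.4 and 53.5 TPM in rmIl22 1, 2 and 3. Ddx3y, a Y-linked gene, was at 25.1 to 31.6 TPM in the PBS libraries, at 26.0 TPM in rmIl22 1, and at 0.0288 and 0.0855 TPM in rmIl22 2 and 3. The 3 PBS libraries and rmIl22 1 thus have the pattern of males, and rmIl22 2 and 3 that of females. Of 414 tested X-linked genes 12 were called, meaning an adjusted p under 0.05 from limma on log2(TPM + 1) with Benjamini-Hochberg adjustment, and of 7 Y-linked genes 0 were called, against 2.69% of all genes tested.

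The second is in genes that mark regions of the gut. Gata4, a transcription factor of the upper small intestine, was at 10.8, 13.8 and 17.4 TPM in the PBS libraries and at 0.0983, 15.8 and 0.177 TPM in rmIl22 1, 2 and 3. Hoxb9, a homeobox gene of the posterior gut, ran the opposite way, with 0.435, 1.09 and 0.439 TPM against 18.3, 0.349 and 15.7 TPM. So rmIl22 2 had the marker pattern of the PBS libraries, and rmIl22 1 and 3 had another. All 6 are labelled ileum, and the untreated P14 libraries had 0.119 to 7.51 TPM of Gata4. Gip (80.0, 140 and 142 against 1.68, 96.8 and 4.60 TPM), a hormone of the upper small intestine, split the libraries the same way. Slc10a2, the bile acid importer of the terminal ileum, was at 19.8, 18.3 and 5.13 TPM in the PBS libraries and at 366, 35.7 and 237 TPM in the rmIl22 libraries. Car1, an abundant carbonic anhydrase of the colon, reached 1738 TPM in rmIl22 1 and at most 1.66 TPM in the other injected libraries. Of the 15 genes listed as markers of the upper small intestine and stomach, 6 passed the filter, 2 had an unadjusted limma p under 0.05 and 0 were called, their summed level was 437 to 1944 TPM in PBS and 198 to 1071 TPM in rmIl22, and Gkn2 and Muc6 were at 0 in all 6 libraries. Of the 12 colon markers, 5 passed the filter, 3 had an unadjusted limma p under 0.05 and 0 were called, their sum was 151 to 197 TPM against 77.9 to 2009 TPM, and Hoxb13, Hoxd12, Prdx6b and Ly6g6c were at 0 in all 6. The authors' deposited table lists 2 of these colon markers, Retnlb with a log2 fold change of 8.08 (adjusted p = 1.18e-06) and Mptx1 with -1.17 (adjusted p = 0.00707). Of the 13 ileal markers, 13 were tested, 2 were called higher (Muc3 and Slc51b) and 0 lower, against 0.443% and 2.25% of all genes. Their sums were 6319 to 9469 TPM in PBS and 6489 to 17374 TPM in rmIl22.

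The third is in genes of inflammation. S100a8, a subunit of the neutrophil protein calprotectin, was at 11, 27.2 and 0.488 TPM in PBS and at 0.276, 400 and 53.3 TPM in rmIl22. Lcn2, the iron-sequestering lipocalin of inflamed epithelium and neutrophils, reached 110 TPM in rmIl22 2 and at most 12.6 TPM elsewhere in the injected mice. Markers of neutrophils, eosinophils and mast cells summed to 54.6 to 122 TPM in PBS and 47.6 to 1105 TPM in rmIl22, with 12 of 23 tested and 0 called. Of the 1105 TPM in rmIl22 2, S100a8 made up 400 and S100a9 627 TPM. The list's median difference from PBS was -0.25, 0.38 and 0.64 on the log2 scale in rmIl22 1, 2 and 3, highest in rmIl22 3. Smooth muscle genes, 12 of 12 tested and 0 called, summed to 2862 to 3704 TPM in PBS and to 5794, 1497 and 2922 TPM in rmIl22 1, 2 and 3. Their part in the results was not tested except as stated beside each result: differences are given for each rmIl22 library from the PBS mean, where rmIl22 1 is the one with the Xist and Ddx3y levels of the PBS libraries and rmIl22 2 the one with their Gata4 and Hoxb9 levels.

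**Figure D1:**
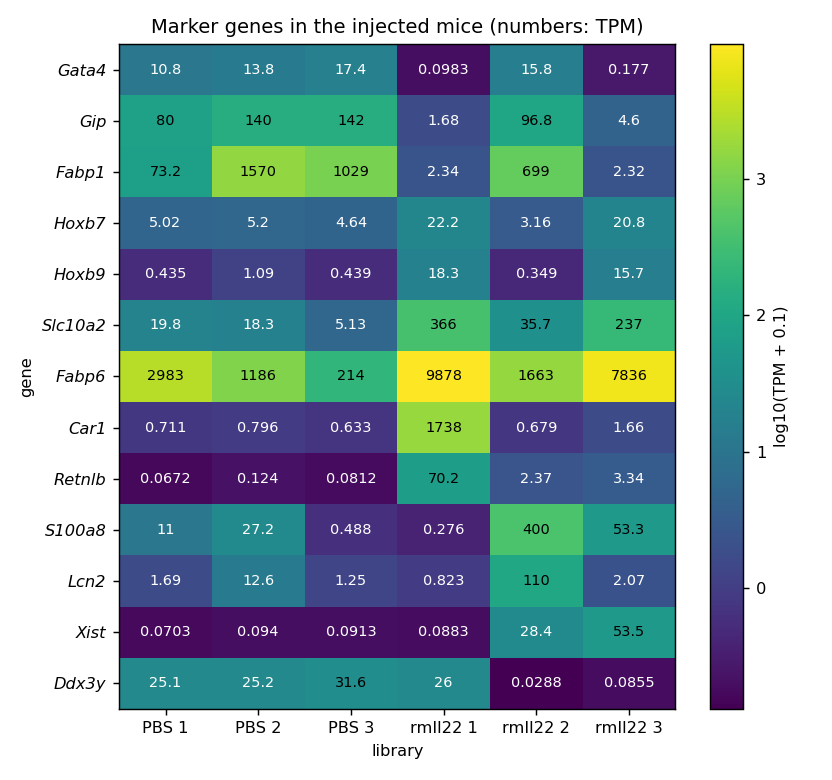
TPM of marker genes (rows) in the 6 injected libraries (columns), with the number printed in each cell and the colour on a log10(TPM + 0.1) scale. Gata4, Gip and Hoxb9 set rmIl22 1 and 3 apart, Xist and Ddx3y set rmIl22 2 and 3 apart, and S100a8 and Lcn2 are highest in rmIl22 2.

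Injected IL-22 was followed by more falls than rises. Among 14456 genes, 389 were called in limma, or 2.69%. Of these, 64 were higher with rmIl22 (0.443% of genes tested) and 325 lower (2.25%), so 16.5% of calls were rises. After quantile normalisation 80 were higher and 202 lower, 28.4% rises. Changes of 1 or more on the log2 scale made up 40 of the rises and 172 of the falls. The median log2 fold change of all genes was -0.05. In all 389 called genes the 3 PBS values and the 3 rmIl22 values did not overlap, as was the case for 21.1% of all genes tested (5.62% with rmIl22 above, 15.4% below). The per-library median over the 64 rises was 1.18, 1.09 and 1.01 on the log2 scale in rmIl22 1, 2 and 3, and over the 325 falls -1.12, -0.94 and -1.07. Counts depended on single libraries: 14 genes were called without PBS 1, 119 without PBS 2, 4 without PBS 3, 148 without rmIl22 1, 1309 without rmIl22 2 and 118 without rmIl22 3. Saa1, Gsta2 and Gpr157 were called in each of the 19 alternatives run.

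**Figure D2:**
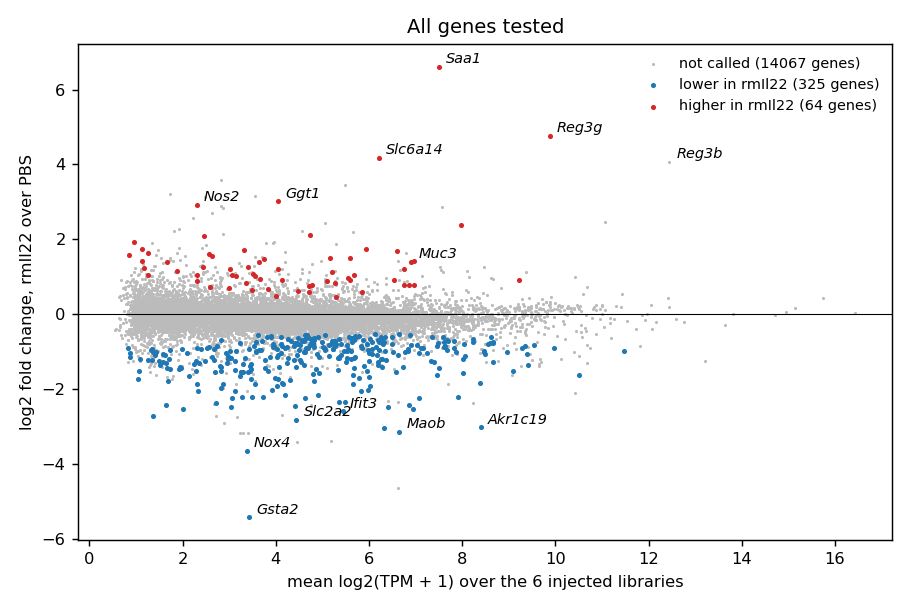
Log2 fold change of rmIl22 over PBS (y axis) against mean log2(TPM + 1) of the 6 injected libraries (x axis) for the 14456 genes tested. The 64 genes called higher are red and the 325 called lower are blue, and Saa1 and Gsta2 are the outermost called genes at 6.62 and -5.42.

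The authors' deposited table of this comparison holds 1102 genes, 371 higher and 731 lower, with an adjusted p up to 0.00999. It holds 367 of the 389 genes called here, 94.3% of these and 33.3% of its own rows. All 1023 rows of the authors' deposited table that were tested here had the same direction in the limma fit. Muc3 is not among its rows. Genes that it lists and that were not called here include Reg3b (log2 fold change 3.60), Duox2 (3.89), Duoxa2 (4.04), Slc10a2 (3.82), Ccl28 (1.28) and Mmp7 (0.88). Pnliprp2 (-0.86) and Cry2 (-0.62) are examples in the other direction. The authors' adjusted p for these was 4.89e-08 to 0.00226.

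The receptor and its signalling chain were measured first. Il22ra1, the epithelial receptor chain, was at 94.8, 98.4 and 105 TPM in PBS and 73.7, 104 and 71.7 TPM in rmIl22, and its groups overlapped. The log2 fold change was -0.28 (SE 0.16, limma adjusted p = 0.501). Il10rb, the shared chain, was at 65.6, 63.4 and 72.1 TPM against 49.7, 50.8 and 52.8 TPM, with separate groups and no call (log2 fold change -0.38, SE 0.10, limma adjusted p = 0.109). Il22ra2, which encodes the soluble decoy receptor, stayed under the filter. Its levels were 3.14, 0.795 and 2.4 TPM in PBS and 0.0192, 0 and 0.514 TPM in rmIl22, from 168, 46 and 106 reads against 1, 0 and 26 reads, and the groups did not overlap (two-sided exact permutation p = 0.1, the smallest that 3 against 3 can give). Untreated libraries had 0 to 1.54 TPM of Il22ra2 at P14 and 0.317 to 4.68 TPM at P24. PBS 2 was lowest in PBS and rmIl22 3 highest in rmIl22, as for the B cell gene Cd79a. A link of Il22ra2 to B cell content was not tested. Il22 itself had 0 to 3 reads in every injected library. Stat3 had a log2 fold change of 0.00 (SE 0.17, limma adjusted p = 0.994). Socs3, whose upstream motif is printed above, was at 13.9, 12.8 and 13.0 TPM against 11.6, 30.5 and 14.8 TPM. Only rmIl22 2 lay far above the PBS values, and Socs3 was not called (log2 fold change 0.38, SE 0.31, limma adjusted p = 0.681). Of 26 tested genes of the receptor and STAT3 signalling list, 0 were called by limma or voom and 5 had an unadjusted limma p under 0.05, and the list's median log2 fold change was -0.05, equal to that of all genes.

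Known IL-22 targets gave the largest rises. Saa1, which encodes the secreted retinol-binding acute phase protein serum amyloid A1 (chr7:46740497-46742980, minus strand, GENCODE M21 on GRCm38), was at 24.7, 27.8 and 7.28 TPM in PBS and at 1870, 1882 and 1634 TPM in rmIl22. The rmIl22 libraries lay close together and far above every PBS library. The log2 fold change was 6.62 (SE 0.44, limma adjusted p = 0.00432), with 6.68, 6.69 and 6.48 in rmIl22 1, 2 and 3. Saa2, a near-identical neighbour whose reads the counting could have split with Saa1, was at 0.0765, 6.87 and 0 TPM against 20.9, 31.9 and 19.7 TPM and was not called (limma adjusted p = 0.0562). Saa3 did not separate the groups, with 58.5, 626 and 8.08 TPM against 138, 3089 and 305 TPM. Its highest library, rmIl22 2, is also the one with the most S100a8.

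Reg3g encodes a lectin that kills Gram-positive bacteria (chr6:78466269-78468872, minus strand). Its levels were 417, 260 and 52.2 TPM in PBS and 3983, 8476 and 3506 TPM in rmIl22. Groups did not overlap, and the log2 fold change was 4.77 (SE 0.74, limma adjusted p = 0.0235). The neighbouring lectin gene Reg3b was at 3652, 3022 and 226 TPM against 16052, 50775 and 14488 TPM. All 3 rmIl22 libraries lay above PBS, but PBS 3 was far below the other PBS libraries and Reg3b was not called (log2 fold change 4.07, SE 1.06, limma adjusted p = 0.107). Of 5 tested Reg family genes, 1 was called higher and 0 lower, against 0.443% and 2.25% of all genes.

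Among other antimicrobial genes, 3 of 19 tested were higher and 0 lower, against 0.443% and 2.25% of all genes, with a median log2 fold change of 0.64. The same list had 2 to 3 called higher under other scalings, and 1 or 0 without PBS 1, 2 or 3. Dmbt1, a secreted scavenger protein that binds bacteria, was at 125, 118 and 86.3 TPM in PBS and 477, 1124 and 352 TPM in rmIl22. It rose in all 3 (log2 fold change 2.39, SE 0.40, limma adjusted p = 0.0299), most in rmIl22 2. Cd14, the co-receptor for bacterial lipopolysaccharide, was at 2.55, 2.78 and 1.94 TPM against 8.97, 11.3 and 7.94 TPM (log2 fold change 1.60, SE 0.17, limma adjusted p = 0.0110). Pglyrp1, which binds bacterial cell wall, went from 23.0 to 31.5 TPM in PBS to 61.6 to 102 TPM in rmIl22 (log2 fold change 1.51, limma adjusted p = 0.0171). In the list of acute phase genes and STAT3 targets, 2 of 27 were called higher and 0 lower: Saa1 and Zc3h12a (log2 fold change 1.20, limma adjusted p = 0.0287), an RNase that degrades inflammatory transcripts.

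The enzymes that make reactive oxygen and nitrogen species moved in both directions, with 3 of 15 tested called higher and 2 lower, against 0.443% and 2.25% of all genes. Without PBS 1, 2 or 3, 0 were called higher and 1, 1 and 0 lower. Nos2, the inducible nitric oxide synthase, was at 1.05, 0.793 and 0.579 TPM in PBS and 24.3, 13.7 and 5.88 TPM in rmIl22. Its groups did not overlap (log2 fold change 2.93, SE 0.43, limma adjusted p = 0.0204). Noxa1 (log2 fold change 1.48, limma adjusted p = 0.0418) and Noxo1 (0.79, limma adjusted p = 0.0199), the activator and organiser subunits of the epithelial oxidase NOX1, were higher as well. Duox2, the peroxide-producing oxidase of the epithelial surface, was at 1.74, 1.60 and 1.04 TPM against 12.4, 42.6 and 5.97 TPM, and its maturation factor Duoxa2 at 1.73, 2.09 and 1.42 TPM against 19.7, 55.8 and 5.24 TPM. Both had every rmIl22 library above every PBS library and missed the threshold (limma adjusted p = 0.0642 and 0.0884), with rmIl22 2 highest. Nox4, by contrast, was among the largest falls and is described with the suckling genes. Hmox1, which breaks down haem, went from 31.2 to 36.8 TPM in PBS to 12.7 to 22.3 TPM (log2 fold change -1.001, limma adjusted p = 0.0474), a call that was lost in 13 of the alternatives run.

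The mucin coat and its sugars held few calls in the limma fit. Of the transmembrane mucins, the authors' deposited table lists 1, Muc4, as higher. Muc3, a transmembrane mucin of the brush border (chr5:137134922-137149322, minus strand), was at 99.6, 67.7 and 57.5 TPM in PBS and 155, 210 and 227 TPM in rmIl22. The lowest rmIl22 library lay above the highest PBS library, and the log2 fold change was 1.41 (SE 0.23, limma adjusted p = 0.0276), with 1.08, 1.51 and 1.63 in rmIl22 1, 2 and 3. The call was lost in 10 of the alternatives run, over all of which the limma adjusted p ranged from 0.000856 to 0.168. Muc13, another brush border mucin, was at 1254, 1278 and 1354 TPM against 1275, 1804 and 1006 TPM, and its groups overlapped (log2 fold change 0.03, SE 0.22, limma adjusted p = 0.976). Muc2, the secreted gel-forming mucin of goblet cells, was at 420, 64.4 and 115 TPM against 142, 188 and 209 TPM and was not called (limma adjusted p = 0.903). Of 18 tested goblet cell markers 0 were called by limma or voom and 1 had an unadjusted limma p under 0.05, with a median log2 fold change of 0.36.

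Fut2 encodes the fucosyltransferase that decorates the epithelial surface with terminal fucose. It was at 1.66, 1.98 and 1.42 TPM in PBS and 15.3, 12.7 and 5.60 TPM in rmIl22. Every rmIl22 library was higher (log2 fold change 2.09, SE 0.32, limma adjusted p = 0.0234). The sialyltransferase St3gal3 went the other way, with 41.9, 45.1 and 54.9 TPM against 13.3, 20.9 and 12.1 TPM (log2 fold change -1.58, SE 0.21, limma adjusted p = 0.0168), and St3gal6 was lower by less (log2 fold change -0.71, limma adjusted p = 0.0213). In the list of fucosyl and sialyl transferases, 1 of 18 was thus called higher and 2 lower, against 0.443% and 2.25% of all genes. Among enzymes that build and branch O-linked glycans, 2 of 27 were higher and 0 lower: the galactosyltransferases B4galt4 (log2 fold change 0.92, limma adjusted p = 0.0129) and B4galt1 (0.90, limma adjusted p = 0.0283). The authors' deposited table lists 6 of these enzymes as higher and 0 as lower: Gcnt1, B3gnt6, B4galt1, B4galt4, B3galt5 and B4galnt2. Of the fucosyl and sialyl transferases it lists 2 as higher and 4 as lower.

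Transporters and surface enzymes completed the leading rises. Slc6a14, a broad amino acid importer of the apical membrane, was at 17.9, 28.7 and 8.47 TPM in PBS and 540, 175 and 325 TPM in rmIl22. All rmIl22 libraries were above PBS, and the log2 fold change was 4.17 (SE 0.51, limma adjusted p = 0.0131), with 4.95, 3.34 and 4.22 in rmIl22 1, 2 and 3. Ggt1, which cleaves extracellular glutathione, was at 4.16, 5.50 and 4.80 TPM against 76.6, 23.0 and 54.7 TPM (log2 fold change 3.02, SE 0.39, limma adjusted p = 0.0163). Its differences were 3.74, 2.05 and 3.27 in rmIl22 1, 2 and 3, lowest in the library with the PBS pattern of Gata4. The serine protease genes Prss30 (log2 fold change 1.74) and Prss32 (1.69), the tyrosine aminotransferase Tat (1.59), the phospholipid acyltransferase Lpcat4 (1.55) and AA467197 (2.13) were also among the 15 largest rises, with limma adjusted p of 0.00862 to 0.0298. Mir1942 and Mir7675, which lie inside Plec and Smc6 on the same strand, entered by the same rule on 5 reads or fewer in any injected library.

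**Figure D3:**
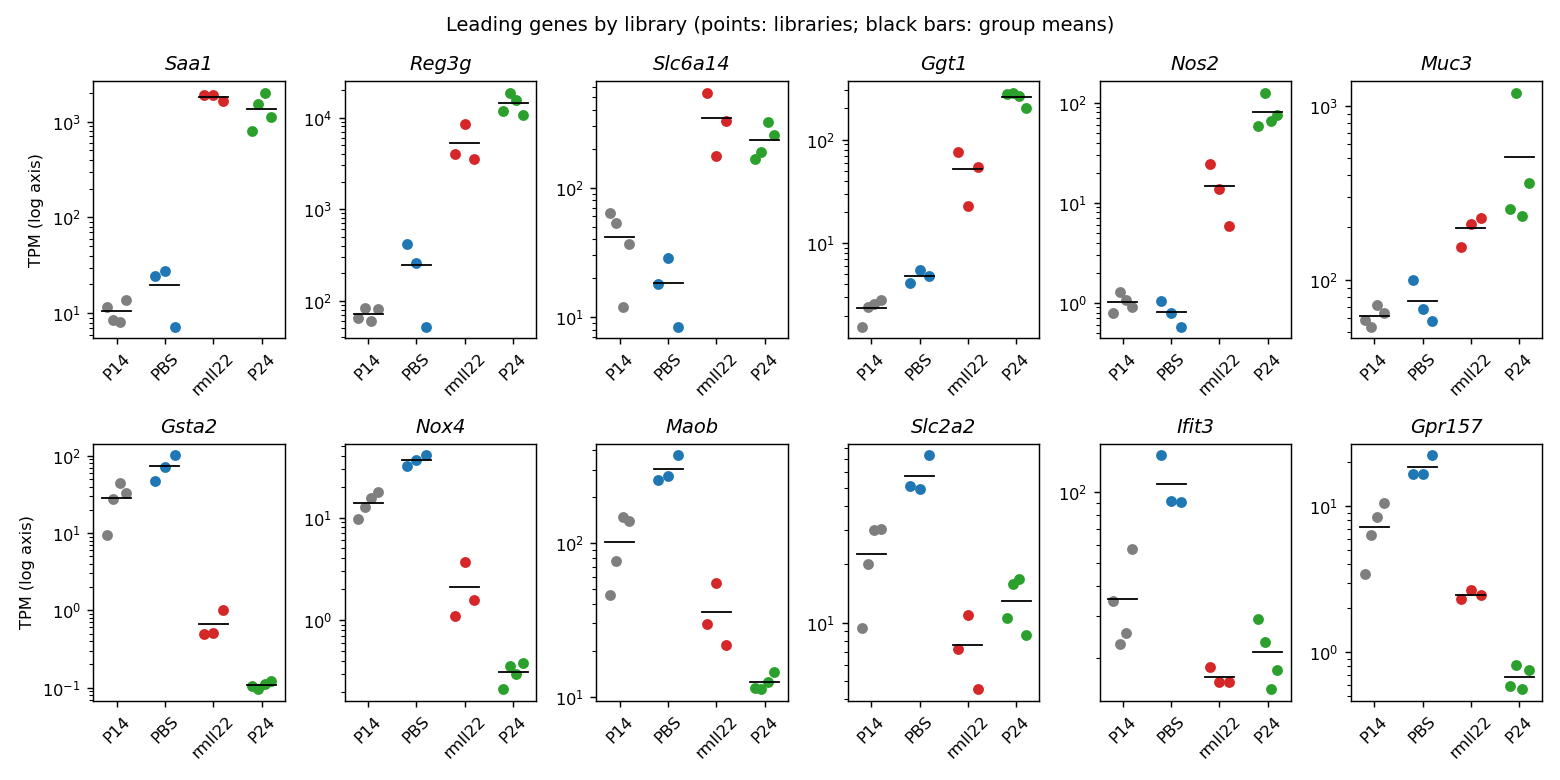
TPM (log axis) of 6 genes called higher (top row) and 6 called lower (bottom row) with rmIl22, one point per library and a black bar at the group mean, for untreated P14, PBS, rmIl22 and untreated P24 mice. In every panel the 3 rmIl22 points lie on one side of the 3 PBS points, as for Saa1 at 1634 to 1882 against 7.28 to 27.8.

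Suckling enterocyte genes held 12 of the 325 falls. Of 31 tested, 12 were lower and 0 higher, against 2.25% lower among all genes, and the list's median log2 fold change was -0.92 against -0.05. In 23 of the 31 the groups did not overlap, with rmIl22 below, against 15.4% of all genes. They included Nox4, Asah2, Spp2, Tmem9, Folr1, Mcoln3, Hexa, Amn, Tpp1 and Lamp2. The list's median difference was -1.20, -0.59 and -1.09 in rmIl22 1, 2 and 3, smallest in the library with the PBS pattern of Gata4. The count of falls was 1, 4 and 0 without PBS 1, 2 and 3, was 5, 26 and 4 without rmIl22 1, 2 and 3, and was 13 with rmIl22 2 as the only rmIl22 library. It was 6 under median scaling, 5 after quantile normalisation, 6 with a replicate block and 4 with a sex term. In whole tissue, fewer cells of a type and less RNA per cell cannot be told apart.

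Nox4, an oxidase that makes hydrogen peroxide (chr7:87246096-87398710, plus strand), was at 31.7, 36.0 and 40.3 TPM in PBS and 1.10, 3.68 and 1.57 TPM in rmIl22. Its groups were far apart, with rmIl22 2 the least low (log2 fold change -3.65, SE 0.28, limma adjusted p = 0.00596). Among lysosomal genes, the enzyme gene Hexa fell by 0.90 and the peptidase gene Tpp1 by 0.75 on the log2 scale (limma adjusted p = 0.0418 and 0.0302). Mcoln3, a channel of the endosome membrane, was at 245, 202 and 298 TPM against 94.6, 102 and 115 TPM (log2 fold change -1.24, limma adjusted p = 0.0168). Folr1, the folate receptor, was at 1005, 958 and 1329 TPM against 378, 402 and 496 TPM (log2 fold change -1.36, limma adjusted p = 0.0165). Amn, which partners cubilin in the uptake of milk proteins, fell by 0.76 (limma adjusted p = 0.0401).

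Other members, named after their values were seen, did not pass the test. Cubn, encoding cubilin itself, was at 135, 77.8 and 104 TPM against 141, 62.3 and 226 TPM, and Dab2, an endocytic adaptor, at 77.8, 53.0 and 75.6 TPM against 56.5, 66.6 and 89.9 TPM. Both overlapped between groups and neither was called. Lct, which encodes lactase, was at 675, 588 and 827 TPM in PBS and 66.0, 523 and 65.1 TPM in rmIl22. Its low values were in rmIl22 1 and 3, the libraries with low Gata4, and it was not called (limma adjusted p = 0.172). Mamdc4, an endocytic protein of the suckling brush border, was at 1025, 834 and 1137 TPM against 254, 659 and 322 TPM, separate but not called (limma adjusted p = 0.0870). Adult enterocyte genes had 0 of 23 called by limma and 1 by voom, with 12 at an unadjusted limma p under 0.05 and a median log2 fold change of 0.10. The authors' deposited table lists 4 of them as higher (Sis, Ada, Slc10a2 and Klf5) and 0 as lower.

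Genes induced by interferon held 14 of the 325 falls, the most of any list. Of 34 tested, 14 were lower and 0 higher, again against 2.25% lower among all genes, with a median log2 fold change of -0.74. The 14 were Ifit3, Isg15, Rsad2, Usp18, Oasl2, Ifi44, Ifit1, Oas1g, Ifit2, Oas1a, Stat2, Irf7, Ifi27 and Irf9. In 22 of the 34 rmIl22 lay wholly below PBS, against 15.4% of all genes. Median differences were -0.97, -0.41 and -0.89 in rmIl22 1, 2 and 3. The number lower was 2, 3 and 0 without PBS 1, 2 and 3 and 6, 25 and 4 without rmIl22 1, 2 and 3. With rmIl22 2 as the only rmIl22 library, 13 were lower and 2 higher, and with rmIl22 1 alone 27 were lower and 0 higher. The number lower was 7 under median scaling and after quantile normalisation, 11 with a replicate block and 2 with a sex term.

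Ifit3 (chr19:34583531-34588731, plus strand) was at 142, 91.8 and 90.1 TPM in PBS and at 18.4, 15.9 and 15.9 TPM in rmIl22. The rmIl22 libraries lay within a narrow range below every PBS library (log2 fold change -2.59, SE 0.19, limma adjusted p = 0.00524), with differences of -2.46, -2.66 and -2.66. Ifit3 shares much of its sequence with its neighbour Ifit3b, and how reads of the pair were shared out is uncertain. Isg15, a ubiquitin-like modifier, was at 136, 134 and 85.8 TPM against 17.7, 50.0 and 22.2 TPM (log2 fold change -2.06, SE 0.37, limma adjusted p = 0.0377). Its smallest difference, -1.20, was in rmIl22 2, the library with the most S100a8. The call of Isg15 was lost in 10 of the alternatives run. Ifit1, which binds viral RNA, was at 312, 274 and 307 TPM against 116, 102 and 112 TPM (log2 fold change -1.43, limma adjusted p = 0.00596). The transcription factor genes Stat2 (log2 fold change -0.94), Irf7 (-0.93) and Irf9 (-0.67) were lower, with limma adjusted p of 0.0223 to 0.0431.

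Some members, known to answer mainly to interferon gamma and named after their values were seen, were highest in rmIl22 2. Gbp2, a guanylate-binding protein, was at 19.6, 28.0 and 18.1 TPM in PBS and 18.6, 48.7 and 17.5 TPM in rmIl22, with rmIl22 2 above the PBS range and rmIl22 3 just under it. Iigp1, an immunity-related GTPase, was at 12.2, 22.6 and 9.04 TPM against 5.88, 33.5 and 8.41 TPM. Neither was called. The 11 tested MHC class II genes had 0 calls by limma or voom, 5 at an unadjusted limma p under 0.05 and 0 positive log2 fold changes. Among them H2-Ob was at 4.59, 1.05 and 3.58 TPM in PBS and 0.517, 0.126 and 2.07 TPM in rmIl22, overlapping between groups.

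The PBS libraries also stood above untreated mice. In 30 of the 34 interferon-stimulated genes every PBS library lay above every untreated P14 library, against 9.47% of all genes tested, and in 0 did every PBS library lie below, against 6.58%. PBS also lay wholly above P14 in 134 of the 325 genes called lower (41.2%), a set picked for PBS values above rmIl22. The same held for 16 of the 64 genes called higher (25%) and 6 of the 31 suckling enterocyte genes (19.4%). Ifit3 was at 22.9 to 57.7 TPM in the 4 P14 libraries and 14.8 to 29.3 TPM in the 4 P24 libraries, under all PBS values, and the P14 libraries lay above all rmIl22 values. Isg15 was at 31.1 to 57.2 TPM in P14, where the PBS libraries had 85.8 to 136 TPM. The rmIl22 libraries overlapped P14 in 23 of the 34 genes, lay wholly below in 8 (11.4% of all genes) and wholly above in 3 (6.3%). Age at death and injection both differ between PBS and P14 mice and cannot be told apart.

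The motif printed for Ifit3, Isg15 and Rsad2 was common to the whole list. Upstream sequences were found for 12 of the 14 genes called lower, and 7 of these held the interferon-response motif: Ifit1, Ifit3, Isg15, Oas1a, Oas1g, Rsad2 and Stat2. It was held by 9 of 15 list members that were tested and not called. Among all genes called lower 21 of 228 with a sequence held it, or 9.21%, among genes called higher 0 of 45, and among all symbols 3.46%. TTCNNNGAA was held by 4 of 45 genes called higher (B4galt1, Dusp14, Fas and Slc51b), or 8.89%, near the 8.13% of all symbols. Neither Saa1 nor Reg3g had these letters in the window searched.

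**Figure D4:**
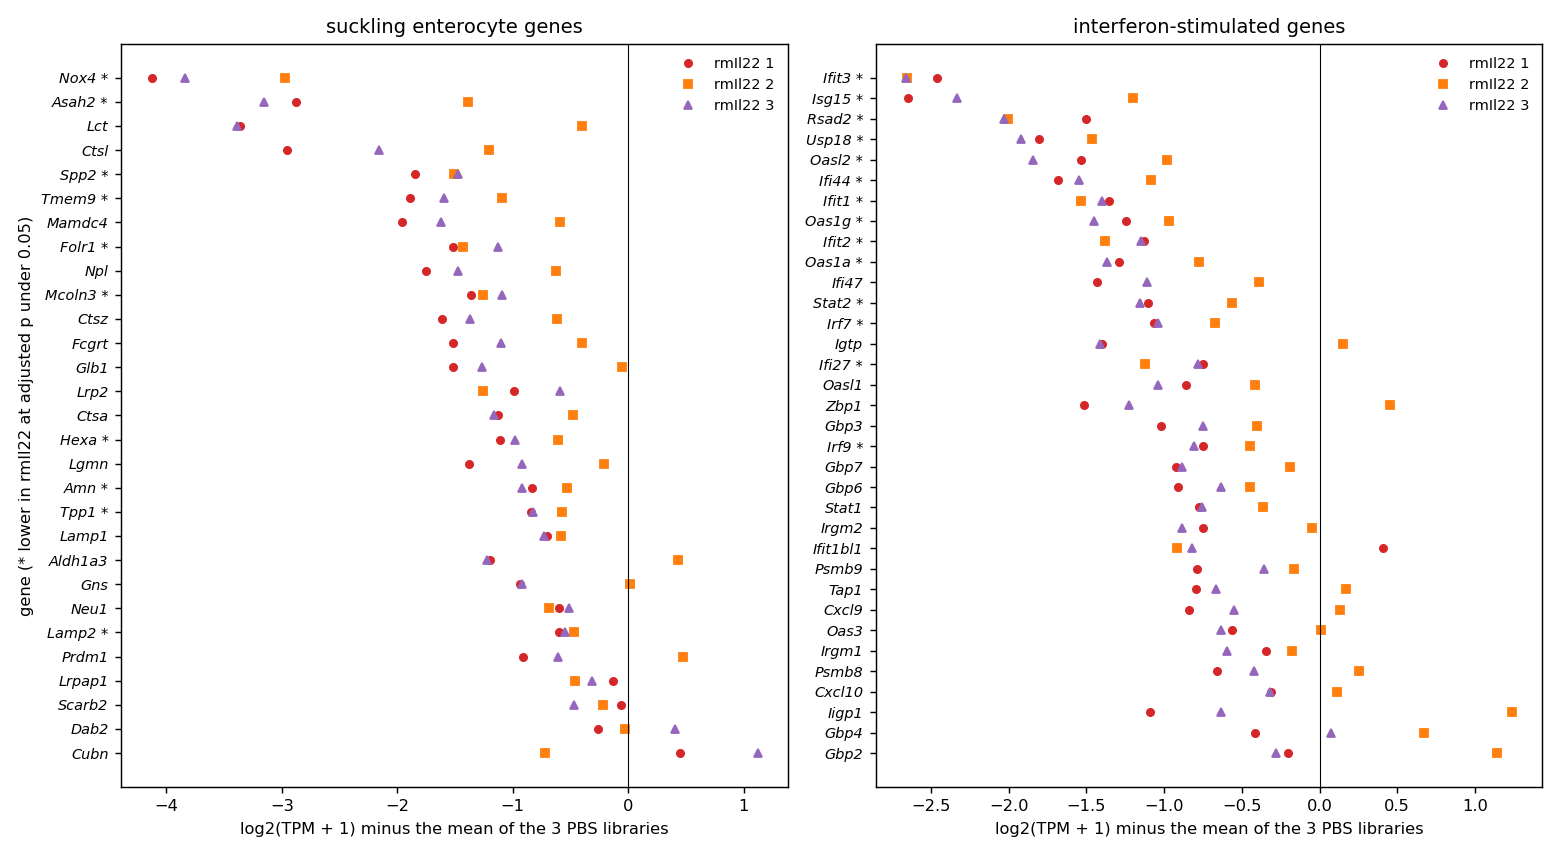
Difference of each rmIl22 library from the mean of the 3 PBS libraries, in log2(TPM + 1), for 29 of the 31 suckling enterocyte genes (left) and the 34 interferon-stimulated genes (right) tested, sorted by log2 fold change, with an asterisk on those called lower. Most points lie left of 0, and rmIl22 2 (squares) lies nearest to 0 or right of it for many members.

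Enzymes of detoxification and redox handling supplied the largest fall. Gsta2, a glutathione transferase (chr9:78331018-78355788, minus strand), was at 47.1, 71.2 and 101 TPM in PBS and 0.489, 0.508 and 1.01 TPM in rmIl22. No rmIl22 library came near the PBS range (log2 fold change -5.42, SE 0.27, limma adjusted p = 0.00193), and the differences were -5.57, -5.55 and -5.14. Untreated mice had 9.52 to 43.9 TPM at P14 and 0.0951 to 0.120 TPM at P24. The close paralog Gsta1 was at 11.2, 19.2 and 15.6 TPM against 13.8, 2.14 and 6.45 TPM and was not called, and how reads were shared between the copies is uncertain. Of 30 tested glutathione genes, 6 were lower (Gsta2, Gstm3, Gsta3, Gstp2, Gclc and Gss) and Ggt1 was higher, against 2.25% and 0.443% of all genes, with a list median of -0.27. Gclc and Gss, which make glutathione, fell by 1.18 and 0.78 on the log2 scale (limma adjusted p = 0.0270 and 0.0174). Leaving out PBS 1, 2 or 3 left 2, 2 and 1 of these falls.

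Maob, the mitochondrial monoamine oxidase, was at 258, 273 and 371 TPM in PBS and 29.7, 55.1 and 21.7 TPM in rmIl22. It is X-linked and fell in rmIl22 1, with the male pattern (difference -3.28), as in rmIl22 2 and 3 (-2.41 and -3.71), with a log2 fold change of -3.13 (SE 0.32, limma adjusted p = 0.0110). Akr1c19, an aldo-keto reductase, was at 1045, 947 and 892 TPM against 137, 78.5 and 151 TPM (log2 fold change -3.02, SE 0.24, limma adjusted p = 0.00596). The pseudogene Marcksl1-ps4 overlaps Akr1c19 on the same strand and fell alike (-3.05), and how their reads were shared out is uncertain. Of 24 tested aldo-keto reductases and aldehyde enzymes, 4 were lower (with Akr1c13 and Adh1) and 0 higher, against 2.25% lower among all genes, at a median of -0.44. Without PBS 1, 2 and 3 the number lower was 1, 3 and 0. Among cytochrome P450 and conjugating enzymes 3 of 38 were lower and 0 higher, at a median of -0.02, and 0, 1 and 0 were lower without PBS 1, 2 and 3. Cyp3a11, a drug-metabolising P450, was at 8.34, 3.80 and 7.38 TPM against 0.395, 0.225 and 0.407 TPM, with no overlap (log2 fold change -2.43, SE 0.26, limma adjusted p = 0.0113). Cyp3a11 has close paralogs.

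Sugar and nitrogen metabolism showed several falls. Slc2a2, the facilitative glucose transporter GLUT2, was at 50.9, 48.9 and 73.4 TPM in PBS and 7.30, 11 and 4.51 TPM in rmIl22, well apart (log2 fold change -2.82, SE 0.29, limma adjusted p = 0.0110). Pck1, the rate-controlling enzyme of gluconeogenesis, was at 426, 358 and 879 TPM against 97.4, 97.8 and 141 TPM (log2 fold change -2.20, SE 0.34, limma adjusted p = 0.0230). Fbp1, also of gluconeogenesis, was at 396, 394 and 566 TPM against 121, 156 and 173 TPM (log2 fold change -1.58, SE 0.20, limma adjusted p = 0.0148). These were the 3 called lower among 22 tested genes of carbohydrate digestion and hexose use, with 0 higher and a median of -0.11, against 2.25% lower among all genes. Without PBS 1, 2 and 3 the number lower was 0, 3 and 0. Without rmIl22 2, 3 members were higher and 7 lower, and 13 had an unadjusted p under 0.05 in the main limma fit. The authors' deposited table lists the same 3 as lower and 4 others as higher: Sis, Mgam, Slc2a1 and Hk2. Of 16 tested genes of arginine and citrulline metabolism, Asl (-1.26), Prodh (-1.09) and Cps1 (-1.06) were lower, with limma adjusted p of 0.0125 to 0.0209, and Nos2 was higher. Those falls numbered 0, 1 and 0 without PBS 1, 2 and 3. Cps1 and Asl encode steps of the urea cycle, which the suckling gut uses to make citrulline and arginine.

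Bile acid, fat and iron genes gave 2 calls a list, of 10, 29 and 22 tested. Among all genes 0.443% were called higher and 2.25% lower. Slc51b, a subunit of the basolateral bile acid exporter, was at 421, 472 and 417 TPM against 903, 738 and 835 TPM (log2 fold change 0.91, SE 0.13, limma adjusted p = 0.0201), higher also in rmIl22 2. Abcc2, an apical export pump for conjugates, was at 173, 160 and 183 TPM against 62.9, 57.6 and 73.9 TPM (log2 fold change -1.40, SE 0.13, limma adjusted p = 0.00769). Slc10a2 (limma adjusted p = 0.0976) and Fabp6, the ileal bile acid binder (limma adjusted p = 0.309), were not called, and their high values were in rmIl22 1 and 3. Ftl1, the ferritin light chain, fell by 0.98 (limma adjusted p = 0.0267). Among 29 tested genes of fat absorption, Clps and Slc27a4 fell by 0.73 and 0.70 (limma adjusted p = 0.0416 and 0.0493) and 0 rose. The call of Clps was lost in 10 and that of Slc27a4 in 14 of the alternatives run. Cholesterol synthesis genes had 0 of 25 called by limma or voom and 9 at an unadjusted limma p under 0.05, with 21 positive log2 fold changes and a median of 0.46.

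Several other genes were among the 15 largest falls. Gpr157, an orphan receptor, was at 16.7, 16.7 and 22.3 TPM in PBS and 2.32, 2.65 and 2.46 TPM in rmIl22. Its 3 rmIl22 libraries were nearly alike and far below PBS (log2 fold change -2.48, SE 0.15, limma adjusted p = 0.00271). Star, which carries cholesterol into mitochondria, was at 5.33, 10.4 and 11.5 TPM against 0.499, 0.876 and 0.673 TPM (log2 fold change -2.53, limma adjusted p = 0.0112). Lect2, a secreted leukocyte attractant, Leap2, a peptide that blocks the ghrelin receptor, and Tdrp fell by 2.54, 2.42 and 2.44 (limma adjusted p = 0.0270, 0.0315 and 0.0403), each least in rmIl22 2. Asah2, a ceramidase of the brush border, was at 144, 212 and 255 TPM against 26.1, 75.4 and 21.4 TPM (log2 fold change -2.47, limma adjusted p = 0.0392). Ighd4-1, a short immunoglobulin segment, entered on 2, 1 and 1 reads against 0. Tsc22d3, a glucocorticoid target, and Fos, an immediate early gene, fell by 1.69 and 1.48 (limma adjusted p = 0.0192 and 0.0126). They were the only called members of their lists, of 15 and 12 tested, against 2.25% lower among all genes. Their calls were lost in 5 and 4 of the alternatives run. The authors' deposited table lists Tsc22d3 as lower and does not list Fos. It lists Hsd11b2 and Junb, of the same lists, as higher.

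**Figure D5:**
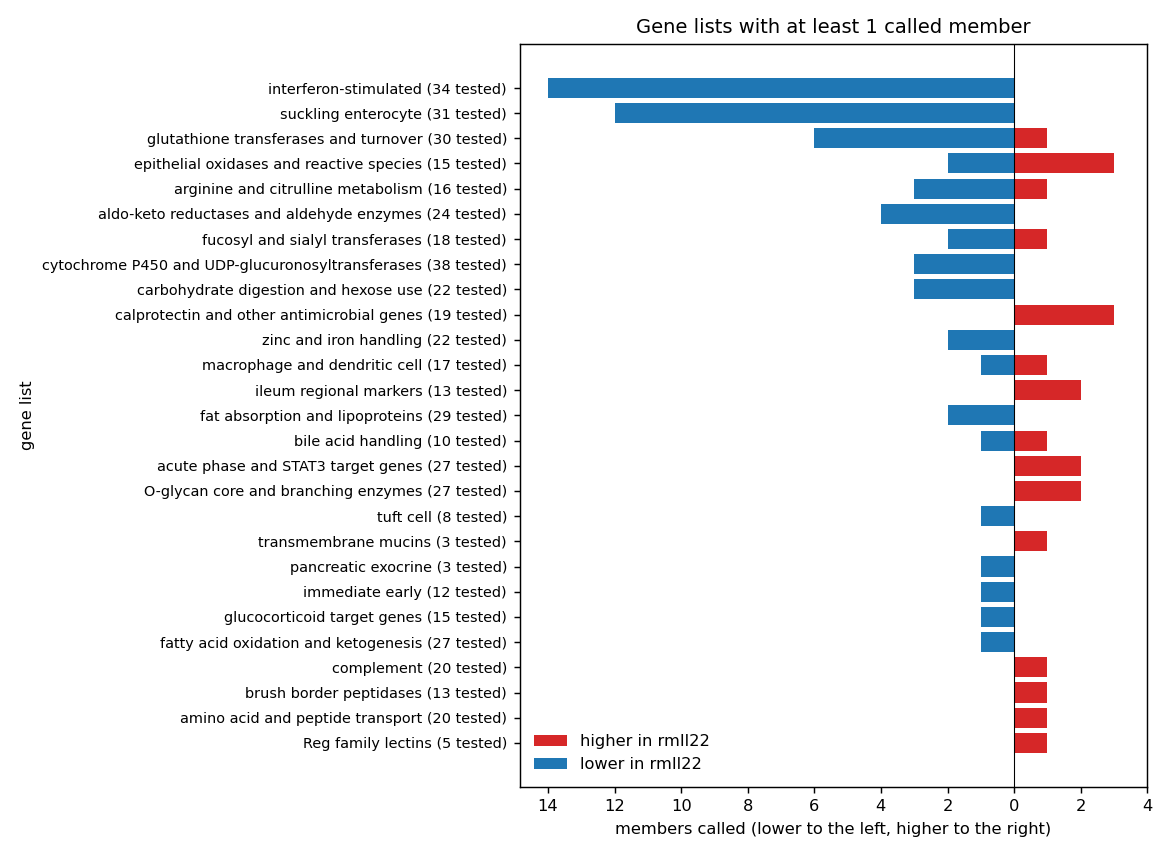
Number of called members per gene list, higher with rmIl22 to the right in red and lower to the left in blue, for the lists with at least 1 call. Interferon-stimulated genes (14 of 34) and suckling enterocyte genes (12 of 31) hold the most, all lower.

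Markers of other cell types showed few calls, to be read beside 0.443% of all genes called higher and 2.25% lower. Among 17 tested macrophage and dendritic cell genes, Csf1r, the receptor for colony-stimulating factor 1, was lower (80.4, 66.8 and 82.6 against 31.3, 30.0 and 40.0 TPM, log2 fold change -1.17, SE 0.15, limma adjusted p = 0.0151), and Cd14 was higher. The list's median was -0.11 and its sum 522 to 560 TPM in PBS and 338 to 639 TPM in rmIl22. Of 13 tested B and plasma cell genes 0 were called by limma or voom and 3 had an unadjusted limma p under 0.05, at a median of -1.14. Ighm was at 52.6, 15.6 and 49.1 TPM in PBS and 7.93, 3.25 and 34.0 TPM in rmIl22, so PBS 2 and rmIl22 3 broke the order. They also did so for Cd79a (9.13, 1.51 and 6.12 against 0.0987, 0.171 and 3.25 TPM) and for the MHC class II genes H2-Ob and H2-Eb2. Untreated libraries spread as well, with Cd79a at 0.0614 to 4.91 TPM in P14 and 0.242 to 20.2 TPM in P24. The part of B cell content in these results was not tested. Paneth cell genes, which mark the antimicrobial cells of the crypt, had 0 of 17 called by limma or voom, 6 at an unadjusted limma p under 0.05 and a median of -0.31. Stem cell (16 tested), cell cycle (33), T and innate lymphoid (13), endothelial (13), fibroblast (17) and enteroendocrine (18) genes had 0 called by limma, with 3, 1, 1, 0, 2 and 3 at an unadjusted p under 0.05. The authors' deposited table lists 3 of the stem cell markers as higher, among them Prom1 (log2 fold change 1.36, adjusted p = 3.05e-07) and Lgr5 (0.76, adjusted p = 7.39e-05), and voom called 1. In the tuft cell list 1 of 8 was lower, Hpgds, which makes prostaglandin D (log2 fold change -1.15, limma adjusted p = 0.0181).

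The change from PBS to rmIl22 was last set against the change with age, P24 against P14. Both came from a single limma fit of all 14 libraries, since the comparisons share no library. Age, weaning and injection differ between them and cannot be told apart. Of 15702 genes, 17.3% had an rmIl22 effect above the age effect and 6.51% one below it (limma adjusted p under 0.05). For the interferon-stimulated genes, 21 of 37 had an rmIl22 effect below the age effect and 0 above, with medians of -0.67 and 0.25. Isg15 changed with age by 0.06 (limma adjusted p = 0.888) and differed in effect by -2.12 (limma adjusted p = 0.0109). For suckling enterocyte genes, 25 of 31 had an rmIl22 effect above the age effect, meaning a smaller fall, and 1, Asah2, below. Their medians were -0.92 for rmIl22 against PBS and -3.37 with age. Spp2, a secreted phosphoprotein, went from 242 to 349 TPM in PBS to 84.4 to 109 TPM in rmIl22 and from 227 to 302 TPM at P14 to 0.533 to 1.02 TPM at P24, and the effects differed by 5.63 (limma adjusted p = 1.71e-09).

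For some leaders the difference of effects on the log2(TPM + 1) scale was not called. Saa1 changed by 6.62 with rmIl22 and 6.83 with age (difference -0.22, SE 0.54, limma adjusted p = 0.797), and Nox4 by -3.65 and -3.48 (difference -0.17, limma adjusted p = 0.743). Nox4 went from 9.65 to 17.9 TPM at P14 to 0.212 to 0.385 TPM at P24, levels at which this scale understates the fall. Other leaders had a called difference. Ggt1 rose by 3.02 and 6.27 (difference -3.25, limma adjusted p = 0.000111), Reg3g by 4.77 and 7.59 (difference -2.81, limma adjusted p = 0.0150) and Nos2 by 2.93 and 5.30 (difference -2.37, limma adjusted p = 0.00349). Slc2a2 was lower in rmIl22 than in PBS and changed by -0.67 with age (limma adjusted p = 0.108), a difference of -2.14 (limma adjusted p = 0.00988). Muc3 changed by 1.41 and 2.67, a difference of -1.27 that was not called (limma adjusted p = 0.132). Fos was lower in rmIl22 than in PBS and rose by 3.08 with age, a difference of -4.56 (limma adjusted p = 0.000187). Its levels were 3.58 to 21.7 TPM in P14, 52.9 to 78.0 TPM in PBS and 20.5 to 27.3 TPM in rmIl22.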

How the data were processed

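Whole ileum RNA was sequenced after ribosomal RNA depletion with a stranded protocol, per the labels' protocols. The authors deposited TPM values per gene; STAR 2.4.0f, HTSeq 0.6.1p1, FastQC 0.11.2, DESeq2 1.14 and the mm10 build are named in the submitters' processing notes, and no source used here states the annotation or strand setting. The authors' deposited comparison table gives log2 fold changes and adjusted p-values. Low TPM values were whole multiples of 1 read in all 31189 genes with a value (tolerance 0.01), which gave the depth of 39.3 to 46.4 M reads in the injected libraries. Of 46882 entries, 27 with symbols turned into dates were left out (at most 0.0776% of TPM).

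Genes at TPM of 1 or more in at least 3 of 6 libraries were tested with limma 3.58.1 (R 4.3.3) with an intensity trend on log2(TPM + 1), Benjamini-Hochberg adjusted over all genes tested, threshold 0.05; fold changes are on that scale and understate low genes. The fit was tested on simulated data drawn around the PBS means with the same spread for all libraries. That test does not cover the unequal spread of the rmIl22 libraries. Tables and the exact test used Python 3.11.15, pandas 2.3.3, numpy 2.4.6 and scipy 1.17.1. Coordinates are GENCODE M21 on GRCm38.

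Named genes are the 15 largest called log2 fold changes in each direction with separate groups and no predicted-model symbol, fixed genes of the IL-22 pathway, and up to 4 called members per list (2 where none was called). Other list members, and region, sex and inflammation markers, were named after their values were seen. The comparison and its 56 lists were chosen with earlier results of these data known, so counts over them are no independent evidence. Of the suckling enterocyte genes, 2 are counted but not reported here by name.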

Additional observations from a re-analysis of the deposited data

Results flagged for a closer look

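Among untreated groups of 4 libraries, 8 of 89 gene and group pairs held 1 library far from the other 3, by Dixon's test at its 95% critical value, which chance passes in about 1 of 20 groups. Muc3, the brush border mucin, was at 1191 TPM in 1 P24 library, where the group began at 233 TPM. Muc2, the goblet cell mucin, was at 270 TPM in 1 P14 library of a group that began at 58.0 TPM. Dmbt1 was at 24.2 TPM in 1 P14 library, where the group reached 44.3 TPM. Cyp3a11 was at 2.21 TPM in 1 P24 library of a group from 0.869 TPM, and Duoxa2 at 2.23 TPM in 1 P14 library of a group from 1.69 TPM. Mir7675 was at 1.93 TPM in 1 P24 library of a group from 0.72 TPM. Ighd4-1 was at 4.07 TPM in 1 P14 library and 12.9 TPM in 1 P24 library, in groups that began at 0. Groups of 3, which include PBS and rmIl22, were not tested this way.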

How the results depend on the processing

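The fit as described called 389 genes, 64 higher and 325 lower, and 10 lists had at least 3 called members. Without an expression filter these were 98, 19, 79 and 3; in a fit of all 14 libraries 1058, 230, 828 and 17; after quantile normalisation 202 were lower. Leaving out 1 library gave 4 to 1309 genes, 1 to 454 higher, 3 to 855 lower and 0 to 32 lists, the lowest without PBS 3 and the highest without rmIl22 2. After seeing the data, 3 alternatives were added. A sex term, under which the rmIl22 effect is that of rmIl22 1 against PBS, gave 122 genes, 42 higher, 80 lower and 5 lists. With rmIl22 1 alone there were 1419, 616, 803 and 43, and with rmIl22 2 alone 1466, 363, 1103 and 37, the lone library being assumed to vary like the PBS libraries. The cause of these shifts was not tested. The directions of 4 genes reversed into calls there: S100a9 at -3.65 and Myl9 at 1.01 with rmIl22 1 alone, Klk1 at -0.85 and S100g at -1.92 with rmIl22 2 alone. Of 66 called genes that are named or listed by the rule, 3 were called in each of 19 alternatives and 17 in each one that kept all libraries. Besides the lost calls given above, those of Asah2, Tdrp and Noxa1 were lost in 10 alternatives each and those of St3gal6 and Gstm3 in 11 each. The call of Reg3g was lost in 8, with voom and the sex term among them. Replicate numbers did not pair the libraries (correlations of same-numbered deviations -0.07, 0.33 and -0.05). A replicate block gave 280 genes, 59 higher and 221 lower, with 12 lists. At these depths a gene of few reads, such as Mir1942, cannot be measured closely.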

Other observations

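Some gene groups held no call and are given as values. Ccl20, a chemokine that draws lymphocytes to the epithelium, was at 7.75, 5.68 and 4.53 TPM in PBS and 45.8, 8.52 and 16.8 TPM in rmIl22, with separate groups (limma adjusted p = 0.207). Ccl28, another epithelial chemokine, was at 11.6, 13.6 and 11.6 TPM against 27.8, 41.5 and 16.5 TPM (limma adjusted p = 0.122). Of 18 tested chemokines 0 were called by limma or voom and 2 had an unadjusted limma p under 0.05. Mmp7, the protease that activates Paneth cell defensins, was at 76.0, 114 and 61.9 TPM against 144, 159 and 155 TPM, separate and not called (log2 fold change 0.90, limma adjusted p = 0.0794). Sqle, a step of cholesterol synthesis, was at 12.8, 26.0 and 10.6 TPM against 35.8, 42.8 and 25.2 TPM, where PBS 2 overlapped rmIl22 3 (limma adjusted p = 0.157).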
